A study of Mus musculus with 16 samples.

Results

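The myeloid priming genes described here are 10 genes chosen by name: the granule enzyme genes Mpo, Elane, Ctsg and Prtn3, the transcription factor genes Cebpa, Cebpb, Spi1 and Irf8, and the cytokine receptor genes Csf1r and Csf2rb. All 10 were found among the 46078 genes counted. Their levels were not used to choose them, but earlier results of these data were known at the time. Haematopoietic stem cells (HSCs) can carry low amounts of transcripts of the lineages they may later form, which is called lineage priming. In the myeloid lineage, PU.1 (encoded by Spi1) and the C/EBP factors bind to enhancers and promoters of myeloid genes, IRF8 steers progenitors towards monocytes and dendritic cells, and the growth factor receptors for M-CSF, GM-CSF, IL-3 and IL-5 carry outside signals. The enzymes of primary granules, which neutrophils and monocytes use against microbes, are made in quantity at the promyelocyte stage.

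RNA-Seq was performed on pools of 30 HSCs, sorted as lin-Sca1+cKit+ (LSK) CD48-CD150+ cells from the bone fraction (endosteal) or the marrow fraction (central) of tibia, femur and humeri. The mice were of strain C57/Bl6, untreated, and either WT or Gfra2-/-, a deletion carried by all cells of the animal, so that the nerves and the HSCs lack the receptor together. Cholinergic nerves depend on this receptor, and the study compared endosteal and central HSCs with and without this innervation. The ages of the mice are not given in the labels. The 15 libraries used here comprised 4 WT endosteal, 4 WT central, 4 Gfra2-/- endosteal and 3 Gfra2-/- central pools, named A to D in column order, since no source used here gives a replicate number. The study calls the pools biological replicates, but the labels do not say that each came from a separate mouse, so that p-values measure the spread between these pools, which may be technical.

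The libraries held 826487 to 18550008 reads on genes, and every WT central library (826487 to 3367289) was shallower than every other library (4416648 or more). Spike-in RNAs took 0.192% to 7.10% of the reads, and under 0.5% in 4 libraries: WT endosteal D, WT central D, Gfra2-/- endosteal D and Gfra2-/- central C. These are the last column of each group. Gfra2 itself had 0 to 4 reads in the WT libraries, 0 to 1 in the Gfra2-/- central libraries, and 2, 47, 1 and 9 in Gfra2-/- endosteal libraries A to D. The reads of B and D were more than any WT library held. Whether they lie in the deleted part of the gene is not known. With so few reads in WT libraries, these counts cannot test the genotype. The groups are therefore called libraries labelled Gfra2-/-. All 10 HSC marker genes, such as Kit, Ly6a, Procr and Hlf, had at least 10 reads in 8 or more libraries, and their summed level was 1777 to 3386 CPM (reads of a gene relative to the library total after TMM normalization). Genes listed as markers of other cell types had reads as well. Of 7 megakaryocyte genes 6 reached 10 reads in 8 or more libraries, with a sum of 742 to 1928 CPM. All 4 megakaryocyte-erythroid factor genes did so, with a sum of 391 to 918 CPM. Of 5 endothelial genes 4 did so, with a sum of 88.3 to 443 CPM, and Cdh5 had no read. Of 6 genes of granulocyte-monocyte progenitors 2 did so, with a sum of 99.6 to 437 CPM. Of these, Gstm1 alone was at 70.9 to 291 CPM. The other was Cd48, at 0 to 17.4 CPM, although the cells were sorted as CD48-. Ms4a3 had reads in 1 library. Whether these reads came from HSCs or from other cells was not tested. In some libraries mature cell markers stood far above the rest. Those of monocytes are described with Irf8. The 8 neutrophil genes summed to 3213 CPM in WT central D and to at most 37.4 CPM elsewhere, and the 7 B cell genes to 1179 CPM in Gfra2-/- endosteal D and to at most 326 CPM elsewhere. In that library the 8 erythroid genes summed to 658 CPM, against at most 165 CPM elsewhere, although the sort excluded lineage-positive cells.

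Of the 4 granule enzymes, Prtn3 alone was present in every library. Prtn3 encodes proteinase 3, a serine protease of primary granules, and lies on chromosome 10 (ENSMUSG00000057729, GRCm38, 79874476 to 79883174, plus strand), next to Elane (ENSMUSG00000020125, 79886247 to 79888215), the gene of neutrophil elastase. Over 15 libraries, Prtn3 had 22080 reads and the other 3 enzymes 121 reads together. Prtn3 made up 89.6% to 100% of the granule enzyme reads of a library, and in 9 of the 15 libraries none came from Mpo, Elane or Ctsg. The myeloid genes thus split, within 1 functional group, into a gene with 67.5 to 417 CPM and genes at or near 0.

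Elane had a single read, in Gfra2-/- central C, and Ctsg (cathepsin G; ENSMUSG00000040314, chromosome 14, 56099881 to 56102574, minus strand) had 3 reads, in WT endosteal C. Both were at 0 in the other 14 libraries, where 3 reads would have been 0.162 to 3.63 CPM, the limit that a count of 0 allows for counting error only. Mpo (myeloperoxidase; ENSMUSG00000009350, chromosome 11, 87793581 to 87804413, plus strand) had no read in the 4 WT central libraries and 0, 0, 2 and 0 reads in WT endosteal libraries A to D. It had 0, 1, 23 and 90 reads in endosteal libraries A to D labelled Gfra2-/-, and 0, 1 and 0 in central libraries A to C. Mpo therefore reached 10 reads in 2 libraries, at 2.65 CPM in Gfra2-/- endosteal C and 7.86 CPM in D, the latter being the library with the highest B cell and erythroid sums. Part of the Mpo exons (14.95%) overlaps an antisense gene, Gm11505, which had 58 reads in all, and the counting did not use strand. None of these 3 genes passed edgeR's filter on low counts in the main fit of any comparison. DESeq2 gave Mpo a log2 fold change of 6.33 (standard error 2.74, adjusted p 0.309) between compartments in libraries labelled Gfra2-/-. Between genotypes in endosteal HSCs it gave 5.61 (2.53, adjusted p 0.273). Neither was called, and Mpo reads ranged from 0 to 90 within the endosteal libraries labelled Gfra2-/-. For Elane and Ctsg, with 1 and 3 reads in all, differences between groups were not detectable.

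The bases before the start sites of the 4 granule enzyme genes are shown because genes of 1 function differed so widely in level. They come from RefSeq promoters (GRCm38.p6), which were found for 7 of the 10 genes and not for Csf1r, Csf2rb and Spi1. The windows run 5′ to 3′ on the gene's strand from 250 bases before the RefSeq start, and the end that GENCODE places in an exon of the gene is left off. They are chr10:79879417-79879613 (plus strand) for Prtn3, chr10:79886062-79886246 (plus) for Elane, chr11:87793534-87793580 (plus) for Mpo and chr14:56102575-56102824 (minus) for Ctsg. Capitals mark matches, on either strand, to letters found in known binding sites, and the matches do not overlap. The letters searched for PU.1 were GAGGAA. Those for C/EBP factors were TTGCNNCAA. Those for RUNX factors were TGTGGT. The TATA box was searched as TATAAA.
Prtn3: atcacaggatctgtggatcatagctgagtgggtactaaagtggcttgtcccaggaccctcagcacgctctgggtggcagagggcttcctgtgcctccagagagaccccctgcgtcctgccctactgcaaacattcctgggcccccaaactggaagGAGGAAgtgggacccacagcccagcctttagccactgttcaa
Elane: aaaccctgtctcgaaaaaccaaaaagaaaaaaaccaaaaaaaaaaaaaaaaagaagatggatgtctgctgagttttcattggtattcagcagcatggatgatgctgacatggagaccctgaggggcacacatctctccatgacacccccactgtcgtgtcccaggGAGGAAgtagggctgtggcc
Mpo: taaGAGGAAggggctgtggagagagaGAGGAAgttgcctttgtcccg
Ctsg: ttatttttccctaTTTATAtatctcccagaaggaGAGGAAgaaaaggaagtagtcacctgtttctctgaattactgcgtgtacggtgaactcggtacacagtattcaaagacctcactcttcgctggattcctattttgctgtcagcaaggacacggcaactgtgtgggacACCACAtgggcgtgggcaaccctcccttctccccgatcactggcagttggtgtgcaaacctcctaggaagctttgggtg
GAGGAA was present in all 4 windows, on the gene's own strand. It lay 95 bases before the RefSeq start in Prtn3, 85 in Elane, 216 in Ctsg, and 247 and 224 in Mpo. The end left off was 203 bases in Mpo, 65 in Elane, 53 in Prtn3 and 0 in Ctsg. The matches of Mpo and Elane are thus closer to the GENCODE start given above than these distances. The windows of Elane, Mpo and Ctsg end at the GENCODE start. That of Prtn3 instead lies inside the GENCODE gene (79874476 to 79883174), outside its exons. Bases before the GENCODE start of Prtn3 were not searched. The same letters occurred in 23.3% of the 32851 mouse promoter windows of 250 bases. TTGCNNCAA (1.74% of promoters) was in none of the 4, TGTGGT (14.0%) in reverse complement in Ctsg, and TATAAA (12.4%) in reverse complement in Ctsg. In these windows, the letter matches thus did not separate Prtn3 from the 3 genes near 0. In the 250 bases of the other members, TATAAA stood 30 bases before the RefSeq start of Cebpa and 31 bases before 1 RefSeq start of Irf8.

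Compared per length, as CPM per kb of exon, Prtn3 was the highest of the 10 genes with a mean of 103.6 over the 15 libraries. Spi1 followed with 26.2 and was below Prtn3 in 14 of 15 libraries. Irf8 had a mean of 8.10 and was below Spi1 in 13 of 15. Irf8, Cebpb (3.70) and Csf2rb (3.50) could not be put in order, since Irf8 exceeded Cebpb in 7 of 15 libraries and Cebpb exceeded Csf2rb in 6 of 15. Csf2rb exceeded Csf1r in 15 of 15 libraries. The means of Csf1r (0.333), Cebpa (0.284) and Mpo (0.211) rested on a few libraries each, and Ctsg (0.0175) and Elane (0.00868) were at 0 in 14 of 15.

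**Figure D1:**
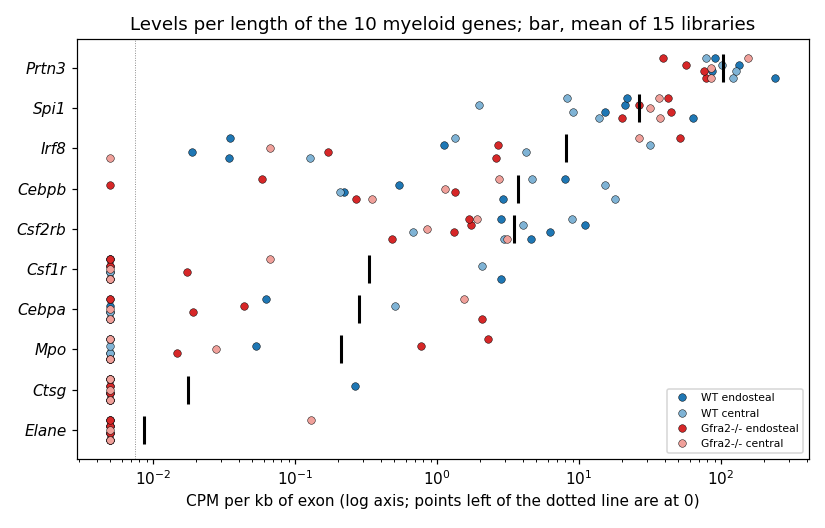
Level of each of the 10 genes in each library in CPM per kb of exon, on a log axis, with the mean of 15 libraries as a black bar and colours for the 4 groups; points left of the dotted line are at 0. Prtn3 lies between 39.0 and 240.8 CPM per kb in every library, Spi1 between 1.99 and 63.9, and Irf8 spreads from 0 to 51.1.

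Detection followed the same split. Prtn3, Spi1 and Csf2rb were detected in 15 of 15 libraries, Cebpb and Irf8 in 14, Cebpa in 6, Mpo in 5, Csf1r in 4, and Ctsg and Elane in 1. With each library thinned to 826487 reads, Prtn3, Spi1 and Csf2rb remained detected in 15, Irf8 in 10, Cebpb in 7, Csf1r in 4, Cebpa in 3, Mpo in 2, and Elane and Ctsg in 0. In pools of 30 cells, fewer cells with a transcript and less RNA per cell cannot be told apart, so that a gene seen in 1 of several pools may come from 1 cell or from many.

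In WT HSCs, Prtn3 was at 417, 149, 233 and 157 CPM in endosteal libraries A to D and at 209, 219, 177 and 136 CPM in central libraries A to D. The groups overlapped, with means of 239 ± 125 and 185 ± 37.3 CPM (SD, n = 4 each). The highest value was that of endosteal library A. In libraries labelled Gfra2-/-, Prtn3 was at 136, 130, 98.6 and 67.5 CPM in endosteal A to D and at 148, 148 and 267 CPM in central A to C. All endosteal libraries of this genotype lay below all WT endosteal libraries and below all central libraries of their own genotype, by a narrow gap in both cases. The summed level of 4 lymphoid progenitor genes also separated the endosteal groups, in the opposite direction. It was 33.9 to 78.8 CPM in libraries labelled Gfra2-/- and 0.332 to 23.8 CPM in WT. Of these genes, Flt3 had at least 10 reads in 11 of the 15 libraries, Il7r in 2 and Rag1 in 0, and Dntt had no read. The sum thus rests mostly on Flt3. Single genes higher without overlap in this comparison made up 2.69% of those tested. The part of the lymphoid genes in the Prtn3 and Csf2rb values was not tested.

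The log2 fold change of Prtn3 was 0.35 (FDR = 0.865, standard error 0.39) between WT endosteal and WT central HSCs and 0.00 (0.39, FDR = 0.9996) between central libraries of the 2 genotypes, all by edgeR's quasi-likelihood test with Benjamini-Hochberg adjustment over all genes tested. Neither difference exceeded the spread of the libraries. Endosteal libraries labelled Gfra2-/- were at -0.79 (0.36, FDR = 0.9995) against the central ones and at -1.14 (0.39, FDR = 0.738) against WT endosteal ones, neither of which passed the FDR of 0.1. Within the libraries of higher spike-in share, the first became -0.27 and the second -1.12. Without endosteal libraries B and D they were -0.67 and -1.02. Of the Prtn3 exons, 9.18% overlap Plppr3 on the opposite strand, which had 11731 reads in all. The counting did not use strand, and reads on both genes were left out of the counts as ambiguous.

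Spi1 (ENSMUSG00000002111, chromosome 2, 91082390 to 91115756, plus strand) encodes PU.1, an ETS factor needed for myeloid and B cell development, and was the most abundant of the 4 transcription factor genes per length. In WT libraries it was at 172, 40.7, 57.1 and 58.2 CPM in endosteal A to D and at 37.0, 24.5, 5.35 and 22.2 CPM in central A to D. Every WT central library was below every WT endosteal library. In libraries labelled Gfra2-/-, Spi1 was at 53.9, 119, 71.7 and 114 CPM in endosteal A to D and at 99.99, 85.1 and 98.7 CPM in central A to C. These overlapped each other, and all 3 central ones were above all WT central libraries.

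The WT central mean of Spi1 was 22.3 ± 13.02 CPM (SD, n = 4) against 82.1 ± 60.7 (n = 4) in WT endosteal, 89.7 ± 31.9 (n = 4) in endosteal and 94.6 ± 8.24 (n = 3) in central libraries labelled Gfra2-/-. The log2 fold change was 1.86 (standard error 0.75, FDR = 0.586, edgeR) between WT endosteal and WT central HSCs, and 2.05 (0.72, FDR = 0.426) between central libraries of the 2 genotypes. By DESeq2 the second had an adjusted p of 0.0569, below the FDR of 0.1, and the first of 0.173. WT endosteal library A, the highest, moved the first most, to 1.16 without it. Both comparisons share the WT central libraries, which are also the shallowest. With all counts thinned to 826487 reads the values were 2.03 and 2.15, and in the libraries of higher spike-in share 1.93 and 1.98. The compartment difference in libraries labelled Gfra2-/- was -0.08 (0.37, FDR = 0.9995), and the genotype difference in endosteal HSCs was 0.14 (0.51, FDR = 0.976). The interaction of genotype and compartment, which tests whether the compartment difference itself differed, was -1.94 (0.82, FDR = 0.641) and did not pass.

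**Figure D2:**
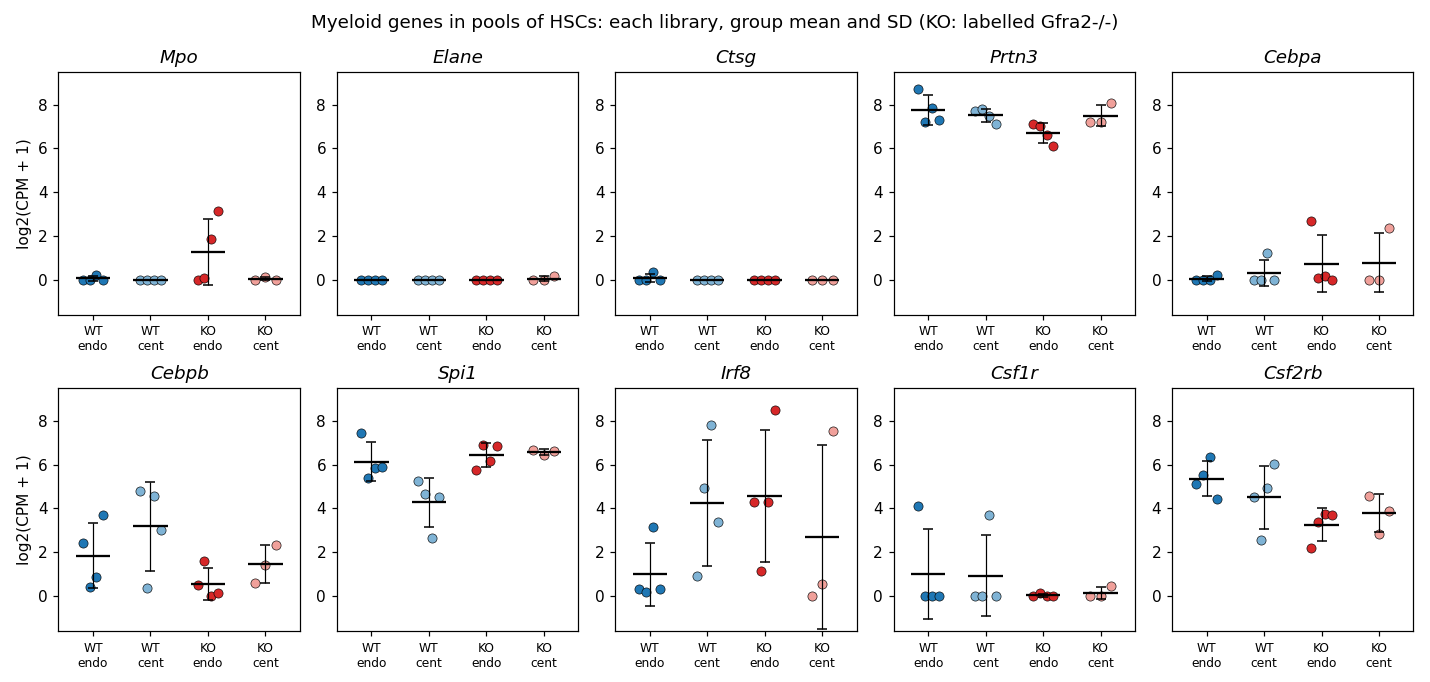
log2(CPM + 1) of each of the 10 genes in each library (points), with the group mean (horizontal bar) and SD (error bar), for WT endosteal, WT central, and endosteal and central libraries labelled Gfra2-/- (KO). Spi1 is lowest in the 4 WT central libraries (5.35 to 37.0 CPM), Csf2rb in endosteal libraries labelled Gfra2-/- is between 3.51 and 12.6 CPM, below all 4 WT endosteal libraries, and Irf8 has 1 library far above the others in each group.

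Irf8 (ENSMUSG00000041515, chromosome 8, 120736358 to 120756694, plus strand) was the most variable of the 10 genes. It was at 0.243, 0.133, 7.88 and 0.245 CPM in WT endosteal A to D and at 0.903, 29.8, 222 and 9.41 CPM in WT central A to D. It was at 18.5, 1.21, 18.9 and 360.2 CPM in endosteal A to D labelled Gfra2-/-, and at 0, 0.471 and 188 CPM in central A to C. Single libraries carried most of the reads, with 4122 of 6439 in Gfra2-/- endosteal D and 1466 in Gfra2-/- central C. The SD of log2(CPM + 1) over the 15 libraries was 3.001, and of the 5355 genes with a mean CPM within 2-fold of Irf8, only 1 had a larger SD and the median SD was 1.05, which is a description of these libraries.

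The 3 libraries with the highest Irf8 were those with the highest summed markers of monocytes and macrophages or of B cells, cell types in which Irf8 is known to be expressed. The 10 monocyte and macrophage genes summed to 2947 CPM in WT central C and 1741 CPM in Gfra2-/- central C, and to between 313 and 774 CPM in the other 13 libraries. Lyz2 made up most of this sum in every library, at 2431 CPM in WT central C and 1350 CPM in Gfra2-/- central C. It was at 311 CPM or more in all libraries. The defining genes Ly6c2 and Ccr2 were at 357 and 148 CPM in WT central C and at 207 and 119 CPM in Gfra2-/- central C, whereas in Gfra2-/- endosteal D they were at 0.612 and 0.0874 CPM. In WT central C, 6 of the 10 genes were at 0, and in Gfra2-/- central C 2 of the 10. In Gfra2-/- endosteal D, the 7 B cell genes summed to 1179 CPM with Cd79a at 321 CPM, and 1 of the 7 was at 0. WT central D, with the next highest B cell sum (326 CPM), had Irf8 at 9.41 CPM. WT central B, with the next highest Irf8 (29.8 CPM), had the lowest sum of both lists, at 313 and 11.2 CPM. The part of these cells' markers in the Irf8 values was not tested.

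**Figure D3:**
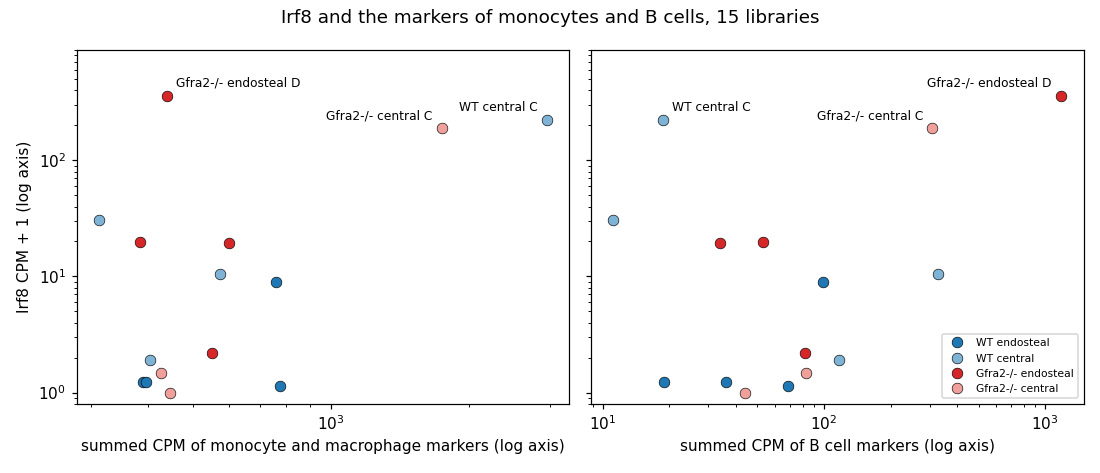
Irf8 (CPM + 1) against the summed CPM of 10 monocyte and macrophage markers (left) and of 7 B cell markers (right) in the 15 libraries. All axes are log, with colours for the 4 groups. Lyz2 makes up most of the monocyte and macrophage sum. The 3 libraries with Irf8 at 188 CPM or more are named: WT central C and Gfra2-/- central C lie at the right of the monocyte plot (2947 and 1741 CPM), and Gfra2-/- endosteal D at the right of the B cell plot (1179 CPM).

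The group means of Irf8 were 2.13 ± 3.84 CPM in WT endosteal, 65.5 ± 105 in WT central, 99.7 ± 174 in endosteal and 62.7 ± 108 in central libraries labelled Gfra2-/- (SD, n = 4, 4, 4 and 3), so that the SD exceeded the mean in each group. By edgeR, its log2 fold change was -4.92 (standard error 1.72, FDR = 0.508) between WT endosteal and central HSCs and 5.53 (1.89, FDR = 0.737) between endosteal HSCs of the 2 genotypes. The groups overlapped in both. DESeq2 gave an adjusted p of 0.0387 for the first and none for the second. Without a single library, the first ranged from -8.20 to -2.65 and the second from 2.57 to 8.92. The WT central libraries A and C held under 1500000 reads on genes (1230252 and 826487), and without them the first was -3.20. The study set its limit of 1500000 on uniquely mappable reads, so that a library left out here may meet it. In the libraries of higher spike-in share, the values were -4.95 and 2.21, and without endosteal libraries B and D the second was 3.13. With spike-in size factors edgeR called the second, at 6.98 (FDR = 0.0731). The other comparisons gave 0.67 (2.19, FDR = 0.9995) for the compartments in libraries labelled Gfra2-/- and -0.04 (1.91, FDR = 0.998) for the genotypes in central HSCs. Without a single library the former ranged from -2.29 (without Gfra2-/- endosteal D) to 8.79, and the latter from -8.07 to 2.21 (without WT central C). In the libraries of higher spike-in share they were 5.77 and -8.46, and with the low spike-in share as a covariate 4.09 and -6.61.

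Cebpb (C/EBPβ, a factor of emergency granulopoiesis and macrophages; ENSMUSG00000056501, chromosome 2, 167688915 to 167690418) was low in most libraries. It was at 4.37, 0.332, 0.816 and 11.9 CPM in WT endosteal A to D, at 27.1, 0.310, 22.7 and 7.06 CPM in WT central A to D, at 0.405, 2.01, 0 and 0.0874 CPM in endosteal and at 0.523, 1.70 and 4.10 CPM in central libraries labelled Gfra2-/-. The highest values were those of the WT central libraries with the fewest reads, 30 reads in A and 17 in C, and all groups overlapped those they were compared with. Where tested, its log2 fold changes were -1.72 (standard error 1.39, FDR = 0.793) between WT compartments, -1.71 (1.53, FDR = 0.9995) between compartments in libraries labelled Gfra2-/- and -2.76 (1.56, FDR = 0.661) between genotypes in central HSCs. Of the Cebpb exon, 20.7% overlaps Tmem189 on the opposite strand.

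Cebpa (C/EBPα, the factor needed to form granulocyte-monocyte progenitors; ENSMUSG00000034957, chromosome 7, 35119293 to 35121928) was at 0 in 9 of 15 libraries. It had 81 reads in Gfra2-/- endosteal A (5.46 CPM), 32 in Gfra2-/- central C (4.10 CPM), and 1 or 2 reads in another 4 libraries. The 2 libraries with more reads were both labelled Gfra2-/-, but the other 5 of that genotype held 0 or 1 read. Cebpa passed the filter only in the fit of all 4 groups, where its interaction was 2.03 (standard error 3.34, FDR = 0.953).

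Csf2rb (ENSMUSG00000071713, chromosome 15, 78325752 to 78353847, plus strand), the common β chain of the GM-CSF, IL-3 and IL-5 receptors, was the receptor gene present in every library. It was at 33.3, 45.6, 80.7 and 20.6 CPM in WT endosteal A to D and at 3.51, 9.51, 12.6 and 12.1 CPM in endosteal libraries A to D labelled Gfra2-/-. The 4 libraries labelled Gfra2-/- were all below the 4 WT libraries, and above them in the sum of lymphoid progenitor genes given with Prtn3. In central HSCs it was at 21.7, 4.96, 29.4 and 65.2 CPM in WT A to D and at 22.8, 6.22 and 14.0 CPM in A to C labelled Gfra2-/-. These groups overlapped.

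Between endosteal HSCs of the 2 genotypes, Csf2rb had means of 9.44 ± 4.18 CPM (labelled Gfra2-/-) and 45.0 ± 25.9 CPM (WT; SD, n = 4 each), and differed by -2.25 on the log2 scale (standard error 0.72), with an FDR of 0.728 by edgeR and an adjusted p of 0.0132 by DESeq2. The FDR of 0.1 was thus passed by DESeq2 and missed by edgeR. Without 1 library the value ranged from -2.49 to -1.81, without B and D it was -2.50, and in the libraries of higher spike-in share -2.64. Between central HSCs it was -1.12 (1.07, FDR = 0.848), and the interaction was -1.17 (1.18, FDR = 0.889), so that a difference between the compartments in this effect was not shown. The compartments differed by 0.54 (0.84, FDR = 0.907) in WT HSCs and by -0.59 (0.91, FDR = 0.9995) in libraries labelled Gfra2-/-.

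Csf2rb has a close paralogue in mice, Csf2rb2, the IL-3-specific β chain, and 12.3% of the 50-base windows of Csf2rb transcripts also occur in Csf2rb2, so that reads of the 50-base length used here cannot be placed there uniquely. Csf2rb2 was at 19.2, 11.9, 11.2 and 3.18 CPM in WT endosteal A to D and at 0, 4.03, 0 and 0 CPM in WT central A to D. In libraries labelled Gfra2-/- it was at 27.7, 5.59, 7.73 and 2.01 CPM in endosteal A to D and at 42.6, 3.49 and 7.30 CPM in central A to C. In the endosteal genotype comparison, in which the Csf2rb groups did not overlap, the Csf2rb2 groups did.

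The α chain gene Csf2ra, the partner of Csf2rb in the GM-CSF receptor, was detected in every library at 31.7 to 84.0 CPM, and Csf3r, the G-CSF receptor gene, at 16.3 to 148 CPM. Csf1r, the M-CSF receptor of monocytes and macrophages (ENSMUSG00000024621, chromosome 18, 61100598 to 61132149), was in contrast at 0 in 11 of 15 libraries. It had 67 reads in WT endosteal A (16.3 CPM), 9 in WT central C (12.03 CPM), 3 in Gfra2-/- central C and 2 in Gfra2-/- endosteal B. WT central C and Gfra2-/- central C are the libraries with Ly6c2 and Ccr2, whereas in WT endosteal A the summed monocyte and macrophage markers were at 391 CPM, among the lower values, with Ly6c2 and Ccr2 at 0. Csf1r did not pass edgeR's filter on low counts in the main fit of any comparison. Between genotypes in central HSCs, DESeq2 gave it a log2 fold change of -4.69 (standard error 3.58, adjusted p 0.584). Of the Csf1r exons, 15.1% overlap Hmgxb3 on the opposite strand, which had 4551 reads in all, and the counting did not use strand.

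In all 5 comparisons, 0 of the 10 genes passed an FDR of 0.1 by edgeR with TMM normalization, and with spike-in size factors 1 did, Irf8 between genotypes in endosteal HSCs. Between WT compartments 5 members were tested, of which 2 (Spi1 and Irf8) had an unadjusted p under 0.05, as did 7.89% of all genes, while edgeR called 0% of 11181 genes. DESeq2 called 1 of 5 (Irf8) and 4.52% of 13430 genes. Of the tested members, 1 (Spi1) was higher in all endosteal libraries without overlap, as were 4.27% of the genes tested, and 0 were lower, against 2.09%.

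Between the compartments in libraries labelled Gfra2-/-, 5 members were tested, of which 0 had an unadjusted p under 0.05, against 4.79% of all genes, and edgeR called 0% of 13860 genes. DESeq2 gave an adjusted p for 5 members (Mpo, Prtn3, Cebpb, Spi1 and Csf2rb) and none for Irf8. It called 0 of these 5 and 2.78% of 14305 genes. Of the tested members, 1 (Prtn3) was lower in endosteal libraries without overlap and 0 were higher, against 3.67% of genes lower and 3.67% higher.

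Between genotypes in central HSCs, 5 members were tested, of which 1 (Spi1) had an unadjusted p under 0.05, as did 8.73% of all genes, and edgeR called 0.051% of 11772 genes. DESeq2 called 1 of 6 members with an adjusted p (Spi1) and 5.17% of 14035 genes. Spi1 was the 1 member higher without overlap, as were 7.99% of the genes tested, and 0 were lower, against 4.44%.

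Between genotypes in endosteal HSCs, 4 members were tested, of which 3 (Prtn3, Irf8 and Csf2rb) had an unadjusted p under 0.05, as did 6.69% of all genes, and edgeR called 0% of 12970 genes. DESeq2 gave an adjusted p for 5 members (Mpo, Prtn3, Cebpb, Spi1 and Csf2rb) and none for Irf8. It called 1 of these 5 (Csf2rb) and 3.71% of 14355 genes. Prtn3 and Csf2rb were the 2 members lower without overlap, as were 3.55% of the genes tested, and 0 were higher, against 2.69%. For the interaction of genotype and compartment, 6 members were tested, of which 2 (Prtn3 and Spi1) had an unadjusted p under 0.05, as did 6.97% of all genes, edgeR called 0% of 15416 genes, and DESeq2 called 0 of 4 members with an adjusted p and 1.69% of 14474 genes. The interaction of Prtn3 was -1.16 (standard error 0.55, FDR = 0.712).

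**Figure D4:**
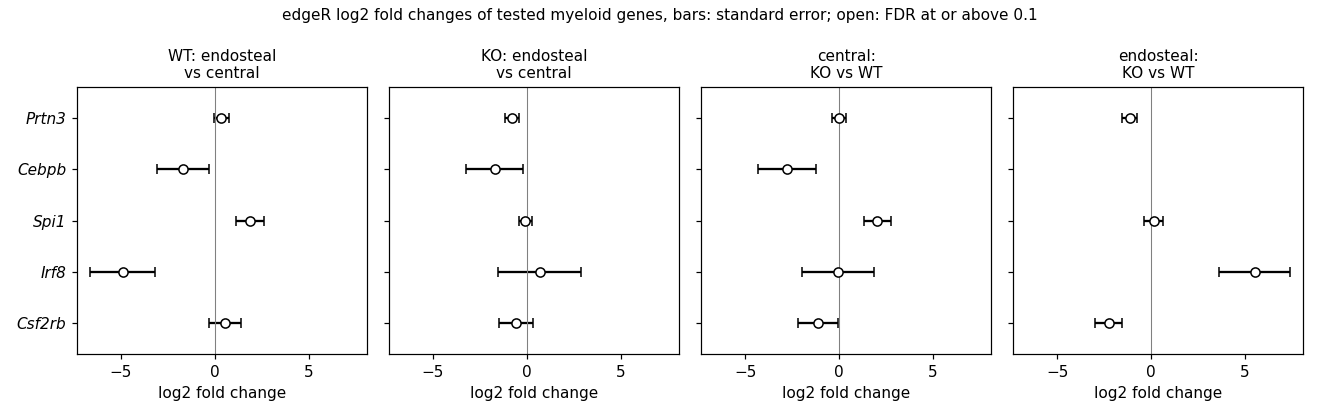
edgeR log2 fold changes (points) with standard errors (bars) of the members tested in each of the 4 comparisons between groups, KO standing for libraries labelled Gfra2-/-; all points are open because no FDR was below 0.1. Irf8 has the widest bars (standard errors of 1.72 to 2.19) and Prtn3 among the narrowest (0.36 to 0.39); Cebpb was not tested in the last panel.

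The members did not move as a block. The median log2 fold change of the tested members was 0.35, -0.59, -0.04 and -0.50 in the 4 comparisons between groups, against 0.03 for all genes in each, with both directions present among the members in every comparison. Across the 15 libraries, Spearman's rho of log2(CPM + 1) between the 6 members that passed the filter over all groups lay between -0.35 (Cebpa with Csf2rb) and 0.43 (Prtn3 with Cebpb), and that between Spi1 and Irf8 was -0.24. With the number of reads on genes, rho was 0.55 for Spi1, -0.45 for Prtn3 and -0.48 for Cebpb. These are descriptions over libraries that share groups and differ in depth.

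For the 3 members of highest level per kb, the genes of most similar pattern over the 15 libraries, among 15416 genes, were as follows. Lypla2 (Spearman's rho 0.87), Gm12254 (0.85) and Efhd2 (0.84) were most like Prtn3, and Ttc4 (0.91), Cers2 (0.89) and Gm6829 (0.87) most like Spi1. Cd55 (0.88), Klf4 (0.82) and Prkcd (0.81) were most like Irf8. Klf4, a monocyte factor gene, had a median of 0 and a maximum of 13.5 CPM, so that its rank pattern rests on a few libraries.

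A further 40 myeloid genes place the members in their pathway. Among 12 other granule genes, Lyz2 (lysozyme) at 311 to 2431 CPM, Srgn (serglycin, the granule proteoglycan) at 694 to 1668, and Ctsc (cathepsin C, which activates the granule serine proteases) at 51.3 to 293 had at least 10 reads in every library. Ltf, Camp, Ngp, Lcn2 and S100a8, genes of later granules and of mature neutrophils, had a median of 0 to 0.196 CPM. Among 12 other transcription factor genes, Runx1 (76.2 to 413 CPM), Myb (266 to 588), Cbfb (46.0 to 455) and Zeb2 (29.8 to 147) had at least 10 reads in every library, and Cebpe, the factor of later granulocytes, had 10 reads in all. Among 16 other receptor and surface genes, Cd34 (209.8 to 712 CPM), Csf3r and Csf2ra had at least 10 reads in every library, whereas Fcgr3 had 8 reads in all and Itgam, the integrin CD11b, 29.

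By edgeR, 0 of these genes were called in any comparison. Between WT compartments 20 were tested, 9 higher and 11 lower in endosteal libraries, 4 with an unadjusted p under 0.05 (7.89% of all genes), and DESeq2 called 2, both lower (4.52% of all genes). The smallest p-values were those of Id2 (log2 fold change -3.78, standard error 1.14, FDR = 0.457), S100a9 and Csf2rb2, and of S100a9 WT central D held up to 794 CPM against 8.75 CPM or less in WT endosteal libraries. Between compartments in libraries labelled Gfra2-/- 24 were tested, 11 higher and 13 lower, 2 with an unadjusted p under 0.05 (4.79% of all genes). DESeq2 called 2, both lower (2.78%). Fcgr2b had the smallest p (FDR = 0.805), with 0 to 0.0675 CPM in endosteal and 2.94 to 41.1 CPM in central libraries, followed by Serpinb1a and Lyz2.

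Between genotypes in central HSCs, 23 were tested, 9 higher and 14 lower, 2 with an unadjusted p under 0.05 (8.73% of all genes), and DESeq2 called 1, lower (5.17%). The smallest p-values were those of S100a9, Csf2rb2 and Flt3 (FDR = 0.507, 0.553 and 0.607). In endosteal HSCs 20 were tested, 9 higher and 11 lower, 2 with an unadjusted p under 0.05 (6.69% of all genes), and DESeq2 called 1 higher and 1 lower (3.71%). Id2 was at 13.7 to 62.0 CPM in libraries labelled Gfra2-/- and at 0.243 to 5.71 CPM in WT (log2 fold change 3.59, standard error 1.04, FDR = 0.649), and Srgn was at 883 to 984 against 1183 to 1395 CPM (-0.50, 0.16, FDR = 0.704), followed by Csf3r. Id2 encodes an inhibitor of basic helix-loop-helix factors, and its endosteal groups did not overlap, which held for 2.69% of all genes in this direction. For the interaction, 31 were tested, 20 higher and 11 lower, 5 with an unadjusted p under 0.05 (6.97% of all genes), and DESeq2 called 1, higher (1.69%). The smallest p-values were those of Camp, S100a8 and Ngp (FDR = 0.523, 0.540 and 0.540), all of them neutrophil genes whose reads lay mostly in WT central D.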

How the data were processed

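RNA was measured by Smart-seq2 and single-end 50-base sequencing of pools of 30 HSCs. The authors aligned the reads with GSNAP to GRCm38 and deposited raw counts of reads per gene, made with HTSeq (0.5.3p3) without regard to strand. The table holds 46078 genes, 92 spike-in RNAs and 5 summary categories, of which reads outside genes made up 27.7% to 37.4% and ambiguous reads 5.87% to 17.0% of a library. Columns were placed in groups through the study's sample list, which gives group but not replicate, and 1 column of per-sample values was not used.

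Each comparison was fitted with edgeR (4.0.16; R 4.3.3) on the libraries of its groups, or on all 15 for the interaction, after filterByExpr and TMM normalization, by the quasi-likelihood test with Benjamini-Hochberg adjustment over all genes tested and an FDR of 0.1. Standard errors are the log2 fold change divided by the square root of F. CPM were scaled by TMM factors of all 15 libraries, and levels per kb use the union of GENCODE M21 exons. Intervals and limits for a count of 0 (3 counts) cover counting error only, since without molecular identifiers PCR copies count as separate reads. The scripts were tested on simulated data. Alternatives were DESeq2 (1.42.0), its size factors or spike-in size factors in edgeR, no filter, at least 10 counts in every library, and thinned counts. A stricter FDR of 0.05, a joint fit of all groups, and the spike-in share (under or over 0.5%) as a covariate were also used. Further fits kept only libraries above a share of 0.5%, or those past quality limits (over 1500000 reads on genes, under 20% mitochondrial). These limits follow the study's, which sets 1500000 on uniquely mappable reads and is thus less strict on depth. Each library was also left out in turn. Leaving out Gfra2-/- endosteal libraries B and D, which held the most Gfra2 reads, was added after seeing the data.

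The members and gene lists were chosen with earlier results of these data known. Named genes are all 10 members in every comparison, of 40 other myeloid genes those called or else the 3 of smallest p, and for the 3 members highest per kb the 3 genes of highest Spearman's rho. Values named beyond that rule, such as those of Ly6c2, Ccr2, Cd79a, Csf2ra and Csf2rb2 by library, were chosen after their values were seen. One marker gene is not reported here and was left out of the sums.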

Additional observations from a re-analysis of the deposited data

Results flagged for a closer look

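In 24 groups of 4 libraries in which a member was not at 1 value throughout, 12 had a library whose gap to the nearest other was above Dixon's 95% critical value as a share of the range of the group. Chance alone gives about 1 in 20 for normally distributed values. The CPM of these low genes are skewed, so that the share given by chance here is not known. Groups with a single library above 0 meet the criterion by construction. Irf8 accounted for 3: WT endosteal C at 7.88 CPM against 0.245 in the next, WT central C at 222 against 29.8, and Gfra2-/- endosteal D at 360.2 against 18.9. Csf1r also accounted for 3, namely WT endosteal A at 16.3 CPM, WT central C at 12.03 and Gfra2-/- endosteal B at 0.101 CPM, each with 0 in the other libraries of its group. For Cebpa they were Gfra2-/- endosteal A at 5.46 CPM against 0.115, WT central C at 1.34 CPM, which is 1 read, and WT endosteal D at 0.163 CPM, which is 2 reads. Mpo at 0.181 CPM and Ctsg at 0.272 CPM stood apart in WT endosteal C through 2 and 3 reads. Spi1 stood apart in WT endosteal A, at 172 CPM against 58.2 in the next, the library that also held the highest Prtn3 (417 CPM) and Csf1r.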

How the results depend on the processing

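No paired analysis was possible because each column of the counts could be tied to a group but not to a replicate. The low spike-in share, which occurs in every group, was fitted as a covariate. It rests on a cut at 0.5% made here, and the labels name no batch. No alternative turned a member call of edgeR, since there was none, and of 469 alternative log2 fold changes of members 45 had the opposite sign, in 11 of 25 results. The number of genes called depended on the test. In WT endosteal against central HSCs it was 0, and 607 with DESeq2, 58 without a filter, 11 with at least 10 counts in every library, 5 with thinned counts, 22 with all groups in one fit, 1 with the spike-in share as a covariate, and 0 to 6 without a single library (6 without WT endosteal A). In libraries labelled Gfra2-/- the compartments gave 0, and 397 with DESeq2 and 15 with spike-in size factors. Between genotypes in central HSCs it was 6, and 725 with DESeq2, 134 without a filter, 29 with at least 10 counts in every library, 18 with thinned counts, 2 with spike-in size factors, 1 in the libraries of higher spike-in share, 0 in those past the quality limits, 0 at an FDR of 0.05, and 0 to 8 without a single library. It was 0 without any 1 of WT central A to D or Gfra2-/- central A, and 1 without Gfra2-/- central B. Between genotypes in endosteal HSCs it was 0, and 532 with DESeq2, 6 with spike-in size factors and 1 with all groups in one fit, and for the interaction 0, and 245 with DESeq2 and 193 with spike-in size factors. DESeq2 called 1 member in each of 3 comparisons, as given with the results, and spike-in size factors called 1, Irf8, between genotypes in endosteal HSCs (7.27 above the median of all genes, FDR = 0.0731). The cause was not tested.

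Signs turned as follows, on the log2 scale and, for spike-in size factors, minus the median of all genes, which these factors moved to 1.58, -0.46, 1.75, -0.28 and -2.18 in the 5 comparisons. In WT compartments, Cebpb was 0.23 in libraries past the quality limits, Csf2rb -0.86 with spike-in size factors, and Prtn3 -0.10 to 0.53 without a single library, the lowest without WT endosteal A. In compartments of libraries labelled Gfra2-/-, Spi1 was 0.0371 with spike-in size factors, 0.04997 with thinned counts and -0.25 to 0.10 without a single library, and Irf8 -1.75 without B and D and -2.29 to 8.79 without a single library. Between genotypes in central HSCs, Prtn3 was 0.46 with spike-in size factors, 0.0750 without a filter, 0.17 with at least 10 counts in every library, 0.0165 with all groups in one fit, 0.0347 past the quality limits and -0.37 to 0.14 without a single library. Irf8 was there 2.49 with spike-in size factors, 0.0575 without a filter, 1.63 past the quality limits and -8.07 to 2.21 without a single library. Between genotypes in endosteal HSCs, Spi1 was -0.14 in libraries of higher spike-in share, -0.38 without B and D, and -0.10 to 0.77 without a single library. For the interaction, Cebpa was -1.58 with spike-in size factors and -2.20 past the quality limits, Csf2rb was 0.55 with spike-in size factors, and Cebpb, at 0.00, was 0.17 with DESeq2, 0.18 with its size factors, 4.83 with thinned counts, 0.95 with the spike-in covariate, 2.71 in libraries of higher spike-in share and -1.81 to 1.26 without a single library.

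With at least 10 counts as the limit of detection, Mpo was detected in 2 libraries, Elane and Ctsg in 0, Cebpa in 2, Cebpb in 8, Irf8 in 9 and Csf1r in 1. Depth limits these low genes most in WT central libraries, where 3 counts are 0.891 to 3.63 CPM.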
